A study of Mus musculus with 8 samples.

Results

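The 10 immediate early response genes Fos, Fosb, Jun, Junb, Egr1, Egr2, Ier2, Atf3, Nr4a1 and Dusp1 were followed in whole mouse mammary glands after injection of small extracellular vesicles (sEVs, membrane-bound particles shed by cells). They were chosen by name from the 51789 genes of the deposited table, and all 10 had enough counts to be tested among 17858 genes. The glands came from female C57BL/6 mice, and sEVs had been injected into the abdominal mammary gland 6 weeks earlier. The sEVNORM and sEVHYP groups received sEVs released in normoxia or hypoxia by AT3 cells, which are a line of metastatic adenocarcinoma of the mouse mammary gland. The sEVCTRL group received material prepared in the same way from medium that no cells had conditioned. RNA with poly(A) tails was sequenced from 3 sEVCTRL, 3 sEVNORM and 2 sEVHYP glands, and the library totals lay between 18194996 and 24622569 counts. The ages of the mice and the time from death to tissue lysis are not given in the sources used here.

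Immediate early genes are transcribed within minutes of a growth factor, cytokine or stress signal without the need for new protein synthesis, and their RNAs are short-lived. ERK, p38 and JNK kinases act on factors already bound at their promoters, such as SRF with its ternary complex partners and CREB, and most of the products are transcription factors that act on later genes. Dusp1, the phosphatase that removes phosphate from these kinases, closes the circuit. In tissue that is cut or warmed before lysis the same genes can be induced within minutes, and in the mammary gland they are expressed by epithelial, stromal, adipose, immune and muscle cells alike.

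The promoters of 8 of the 10 genes were found in the RefSeq table of GRCm38.p6, which gives 250 bases before and 50 bases after each start. Egr1 and Ier2 had no promoter there. The promoters of Egr2, Nr4a1, Dusp1 and Fos are printed here because the differences between groups below turn on Egr2 and Nr4a1, and the differences between libraries on Dusp1 and Fos. They lie at chr10:67537619-67537918 (plus strand, Egr2, the start of 5 in the table that coincides with the annotated gene's principal one), chr15:101266596-101266895 (plus strand, Nr4a1), chr17:26508423-26508722 (minus strand, Dusp1) and chr12:85473640-85473939 (plus strand, Fos). Each is written 5′ to 3′ on the strand of the gene, and capitals mark the CArG box bound by SRF and the core of the cAMP response element (CRE) bound by CREB and ATF proteins, TGACG on either strand (CGTCA when read on the other).
Egr2: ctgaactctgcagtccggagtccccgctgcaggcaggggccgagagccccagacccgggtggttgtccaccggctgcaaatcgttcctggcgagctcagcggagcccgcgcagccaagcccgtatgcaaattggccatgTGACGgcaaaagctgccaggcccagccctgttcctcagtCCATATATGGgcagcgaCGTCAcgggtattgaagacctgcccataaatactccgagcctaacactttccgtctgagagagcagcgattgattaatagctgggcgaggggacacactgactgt
Nr4a1: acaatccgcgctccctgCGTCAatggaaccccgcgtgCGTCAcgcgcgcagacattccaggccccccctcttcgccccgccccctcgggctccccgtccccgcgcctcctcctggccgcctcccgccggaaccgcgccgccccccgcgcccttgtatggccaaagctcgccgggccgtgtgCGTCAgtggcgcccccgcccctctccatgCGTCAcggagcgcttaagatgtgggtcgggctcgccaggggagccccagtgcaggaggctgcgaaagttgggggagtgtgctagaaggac
Dusp1: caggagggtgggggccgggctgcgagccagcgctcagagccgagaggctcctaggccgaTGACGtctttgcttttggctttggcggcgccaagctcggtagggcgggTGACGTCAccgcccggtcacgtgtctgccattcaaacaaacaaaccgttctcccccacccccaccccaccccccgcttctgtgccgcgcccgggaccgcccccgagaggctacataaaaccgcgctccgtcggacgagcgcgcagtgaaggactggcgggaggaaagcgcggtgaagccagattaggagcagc
Fos: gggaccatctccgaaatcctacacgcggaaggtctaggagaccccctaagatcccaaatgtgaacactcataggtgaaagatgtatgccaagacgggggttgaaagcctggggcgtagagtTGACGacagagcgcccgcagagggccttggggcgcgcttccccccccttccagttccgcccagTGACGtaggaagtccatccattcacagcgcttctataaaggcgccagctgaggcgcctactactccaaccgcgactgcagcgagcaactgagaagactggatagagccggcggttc

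Egr2 was the one gene of these 8 with a CArG box in its window, at position -72 from the start, and 1.63% of the 32851 promoters in the table hold one on either strand. The full palindromic element TGACGTCA was found for Dusp1, at position -143 from the start, and in 1.79% of all promoters. The shorter core, which the full element contains, was found for Fos, Fosb, Junb, Egr2, Atf3, Nr4a1 and Dusp1 and in 20.8% of all promoters, with 4 copies for Nr4a1. Fos and Junb also held the letters TATAAA, as did 13.6% of all promoters, and Nr4a1 held CCGGAA, the core bound by ETS factors, as did 14.9%. For Egr2 that core was found at another of its 5 starts and not in the window printed. These are matches of letters and not measured binding. Sequence outside the windows, and the promoters of Egr1 and Ier2, were not searched.

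All 10 genes were expressed in all 8 glands, at very unequal levels. On a scale of CPM (read counts set to the same library size by TMM factors) per kilobase of exon, Dusp1 had the highest median level over the 8 libraries, 10.7, followed by Jun at 9.71, Fos at 8.36 and Egr1 at 6.31. Ier2 (3.75), Nr4a1 (2.74), Junb (2.01), Atf3 (1.60) and Egr2 (1.21) were lower. Fosb was lowest at 0.166, with 4 to 29 counts per library. The ranges of neighbours in this order overlapped down to Egr2, and the highest Fosb level, 0.212, lay below the lowest Egr2 level, 0.658.

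In no comparison were more than 2 of the 10 genes called with sEVs from tumor cells. Egr1 and Egr2 were higher in sEVNORM than in sEVCTRL glands, Egr2 and, narrowly, Nr4a1 were higher in sEVHYP than in sEVCTRL glands, and Nr4a1 was higher in sEVHYP than in sEVNORM glands. Each of these passed an unadjusted P of 0.05, the threshold used in the study, in edgeR's quasi-likelihood test. None passed after Benjamini-Hochberg adjustment over all genes tested, where the smallest adjusted P of a member was 0.9999 for sEVHYP against sEVCTRL and 0.9998 for the other two comparisons. An exact permutation test of a single gene cannot go below P = 0.1 with 3 glands against 3, or P = 0.2 with 2 against 3 (two-sided), so single genes were tested only in the fit across all genes.

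Against sEVCTRL, sEVHYP glands gave 2 called genes of 10 (both higher), while 2.45% of all genes tested were called in either direction. The fitted level was higher for 8 of the 10, with 47.5% of all genes higher. The libraries of the groups did not overlap for 2 of the 10 (Egr2 higher, Junb lower), as for 12.8% of all genes. Between sEVHYP and sEVNORM, 1 of 10 was called (higher) with 3.95% of all genes, 5 of 10 were fitted higher with 47%, and 2 of 10 did not overlap (Nr4a1 and Dusp1, both higher) with 22.8%. Between sEVNORM and sEVCTRL, 2 of 10 were called (both higher) with 1.62% of all genes, 8 of 10 were fitted higher with 49.8%, and 2 of 10 did not overlap (Egr1 and Egr2, both higher) with 4.86%. The median log2 fold change of the members was 0.29, 0.11 and 0.22 in these 3 comparisons, against -0.02, -0.02 and -0.0008 over all genes tested. The 3 comparisons share their libraries in pairs and are not independent of each other. These are bulk samples, so more cells that express a gene and more RNA per cell cannot be told apart.

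**Figure D1:**
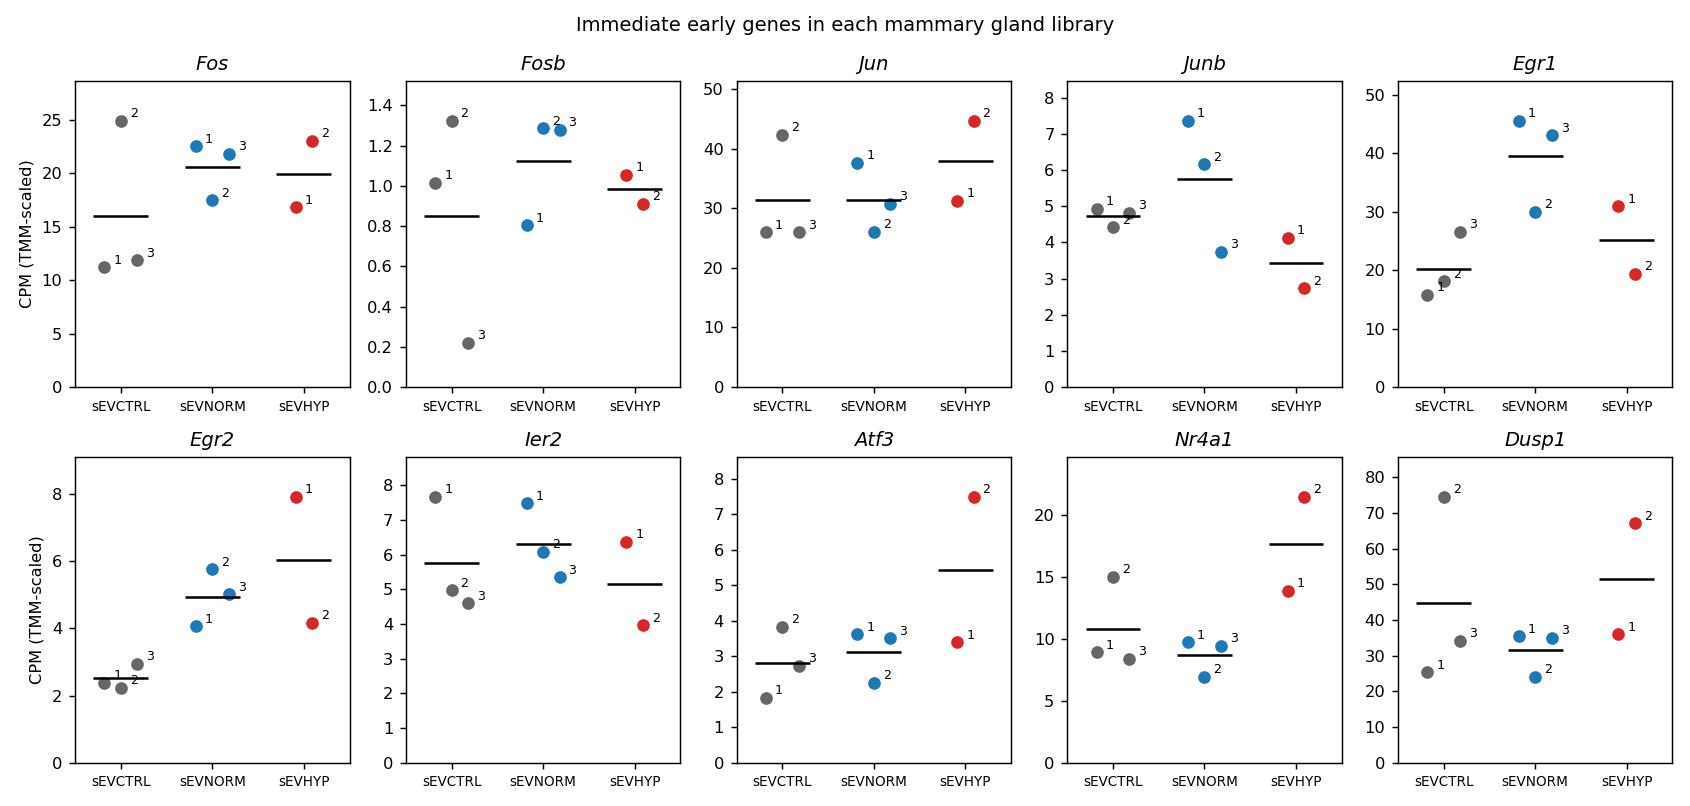
CPM of the 10 genes (y axis, TMM-scaled, from 0) in the 8 libraries by group (x axis), with 1 point per gland, the replicate number beside it and a bar at the group mean. The 5 sEVNORM and sEVHYP points lie above all 3 sEVCTRL points for Egr2, and the replicate 2 glands of sEVCTRL and sEVHYP are the highest for Fos, Jun, Atf3, Nr4a1 and Dusp1.

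Egr2 is a zinc finger transcription factor of the early growth response family, known for myelination and for restraint of lymphocyte activation. Its levels were 2.39, 2.24 and 2.96 CPM in the sEVCTRL glands, 4.06, 5.76 and 5.01 in sEVNORM and 7.93 and 4.18 in sEVHYP, from 47 to 173 counts. Every gland that received tumor sEVs was above every sEVCTRL gland, and sEVHYP replicate 1 stood highest. Against sEVCTRL the log2 fold change was 1.26 for sEVHYP (SE 0.33, 95% interval 0.51 to 2.02, unadjusted P = 0.00436) and 0.97 for sEVNORM (SE 0.31, 95% interval 0.28 to 1.66, unadjusted P = 0.0115). Between sEVHYP and sEVNORM it was 0.29, with an interval from -0.46 to 1.04 (unadjusted P = 0.4). Without sEVHYP replicate 1 the difference from sEVCTRL was 0.73 (unadjusted P = 0.0888). The peripheral nerve markers, 5 genes of a tissue whose Schwann cells need Egr2 to form myelin, summed to 140.9 to 187.9 CPM in sEVCTRL, 97.8 to 175.4 in sEVNORM and 146.7 to 159.4 in sEVHYP, with 0 of 5 called in any comparison and none at 0.

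Egr1, the founding member of the same family and an early target of ERK signaling, measured 15.7, 18.1 and 26.6 CPM in sEVCTRL, 45.5, 30.0 and 43.1 in sEVNORM and 30.9 and 19.4 in sEVHYP. All sEVNORM glands were above all sEVCTRL glands, while 1 sEVHYP gland lay above the lowest sEVNORM value and the other within the sEVCTRL range. The log2 fold change of sEVNORM against sEVCTRL was 0.97 (SE 0.27, 95% interval 0.37 to 1.58, unadjusted P = 0.00540). For sEVHYP it was 0.32 against sEVCTRL (95% interval -0.35 to 0.99, unadjusted P = 0.305) and -0.65 against sEVNORM (95% interval -1.33 to 0.03, unadjusted P = 0.0590). The difference of sEVHYP from sEVNORM passed in other fits, with -0.65 in edgeR on only the groups compared (unadjusted P = 0.0448) and -0.85 with skeletal muscle as a covariate (unadjusted P = 0.0254). Neutrophil markers moved in the same comparison, with 3 of 6 tested genes called higher in sEVNORM than in sEVCTRL. The summed level of the 7 listed ones was 17.3 to 73.7 CPM in sEVCTRL, 41.7 to 164.7 in sEVNORM and 14.8 to 31.9 in sEVHYP, with Ly6g and Camp at 0 in at least 1 library. Of the 3 keratinocyte markers tested, 1 was called higher, and their list of 6 summed to 57.1 CPM in sEVNORM replicate 3 and to 6.02 to 9.26 CPM in the other libraries, with Krt1, Lor, Ivl and Flg at 0 somewhere. Over the 8 libraries, Pearson's r with the neutrophil markers was 0.41 for Egr1 (exact P = 0.317, adjusted over 130 relations 0.559) and 0.16 for Egr2 (exact P = 0.711, adjusted 0.826). Within groups these r were -0.19 and 0.59. With the keratinocyte markers, rho was 0.52 for Egr1 (exact P = 0.197, adjusted 0.412) and 0.81 for Egr2 (exact P = 0.0218, adjusted 0.105). The r with those markers was 0.54 and 0.38. The part of these cells in the Egr1 and Egr2 levels was not tested.

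Nr4a1, also known as Nur77, is an orphan nuclear receptor induced by growth factors and by antigen receptor, adrenergic and contractile signals in muscle. Its levels were 8.94, 15.1 and 8.43 CPM in sEVCTRL, 9.73, 6.96 and 9.46 in sEVNORM and 13.9 and 21.5 in sEVHYP. Both sEVHYP glands were above all 3 sEVNORM glands, and sEVCTRL replicate 2 lay between the sEVHYP values. The log2 fold change of sEVHYP was 1.02 against sEVNORM (SE 0.31, 95% interval 0.32 to 1.73, unadjusted P = 0.00959) and 0.71 against sEVCTRL (SE 0.31, 95% interval 0.0044 to 1.42, unadjusted P = 0.0489). Against sEVNORM the call was lost without sEVHYP replicate 2 (0.67, unadjusted P = 0.117) and with skeletal muscle as a covariate (0.65, unadjusted P = 0.0589). Against sEVCTRL it held in 6 of 16 alternative fits, with values of 0.35 to 1.03. Skeletal muscle markers, of which 0 of 12 were called, summed to 33.3 to 3141 CPM in sEVNORM, 724.3 to 9341 in sEVCTRL and 4979 to 13510 in sEVHYP, and Myh2 was at 0 in at least 1 library. Neutrophil markers went the other way, with 5 of 6 tested genes called lower in sEVHYP than in sEVNORM. Over the 8 libraries, Nr4a1 ran against the neutrophil markers, with r = -0.92 (exact P = 0.00146, adjusted over 130 relations 0.0703), rho = -0.79 (exact P = 0.0279, adjusted 0.130), r of -0.88 within groups and r of -0.83 without the 2 libraries farthest from the median of Nr4a1. This relation was not particular to Nr4a1. Dusp1 gave r = -0.84 (exact P = 0.00672, adjusted 0.125) and rho = -0.81 with the same markers. For Atf3, Jun and Fos, r was -0.75, -0.69 and -0.31. Within groups, r was -0.89 for Dusp1, -0.90 for Atf3, -0.82 for Jun and -0.82 for Fos. The part of neutrophils in the difference in Nr4a1 was not tested.

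**Figure D2:**
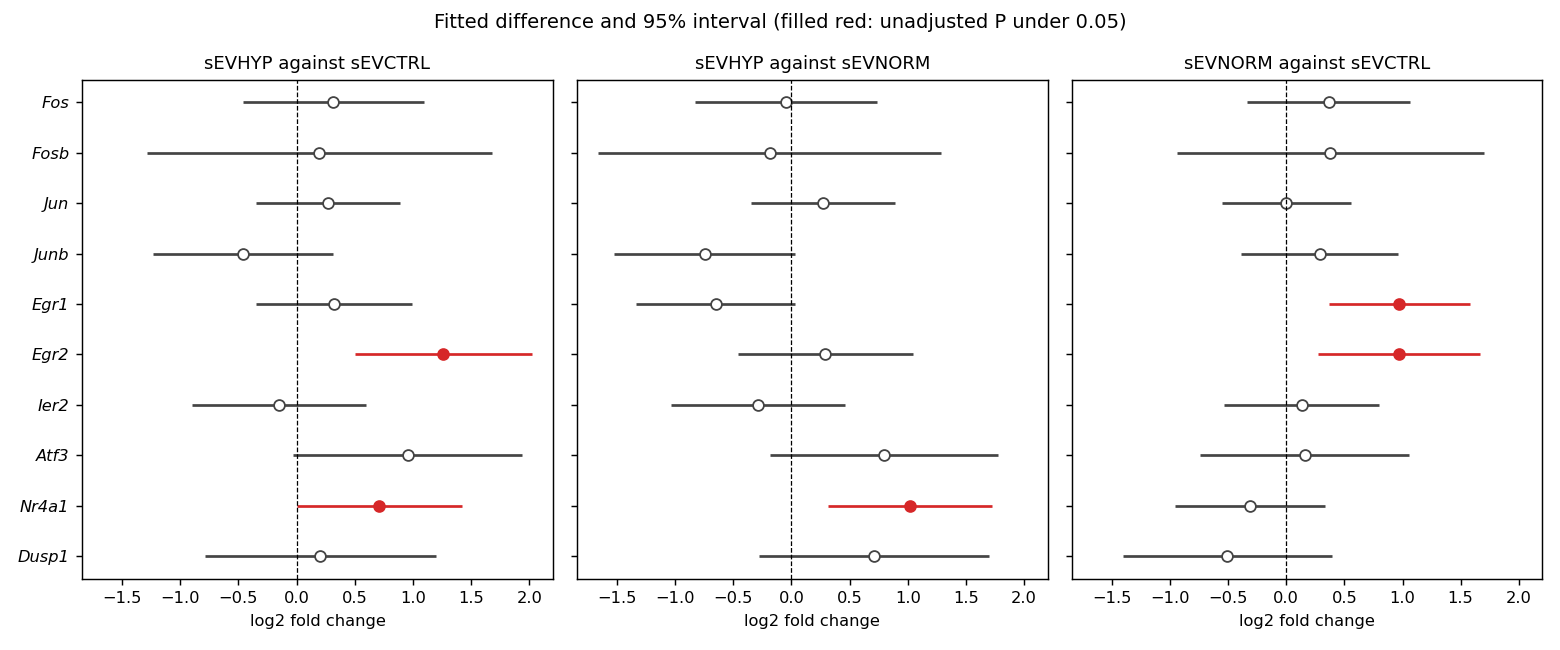
Log2 fold change of each gene (x axis) with its 95% interval, in the 3 comparisons, from the quasi-likelihood fit. Filled red points passed an unadjusted P of 0.05, and they are Egr2 and Nr4a1 for sEVHYP against sEVCTRL, Nr4a1 for sEVHYP against sEVNORM, and Egr1 and Egr2 for sEVNORM against sEVCTRL, while all other intervals reach over 0.

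The AP-1 subunits, leucine zipper proteins that bind DNA as pairs, gave no call. Fos, which pairs with Jun proteins, measured 11.2, 24.9 and 11.9 CPM in sEVCTRL, 22.5, 17.5 and 21.9 in sEVNORM and 16.8 and 23.1 in sEVHYP. The highest and the lowest of the 8 values were both sEVCTRL glands, and all groups overlapped. The log2 fold change from sEVCTRL was 0.36 for sEVNORM (95% interval -0.34 to 1.06) and 0.32 for sEVHYP (95% interval -0.46 to 1.09). Without sEVCTRL replicate 2 these were 0.84 (unadjusted P = 0.00362) and 0.79 (unadjusted P = 0.00743).

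Fosb, the relative of Fos that accumulates on repeated stimulation, ranged from 0.219 CPM (4 counts) in sEVCTRL replicate 3 to 1.32 CPM in sEVCTRL replicate 2. The sEVNORM values of 0.805, 1.29 and 1.28 and the sEVHYP values of 1.05 and 0.910 lay inside that range. The widest of its intervals, for sEVHYP against sEVCTRL, ran from -1.29 to 1.68, so changes of over 2-fold in either direction lie inside it.

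Jun, the central partner of Fos, measured 26.0, 42.3 and 26.0 CPM in sEVCTRL, 37.6, 26.1 and 30.7 in sEVNORM and 31.2 and 44.6 in sEVHYP. Replicate 2 of sEVCTRL and replicate 2 of sEVHYP were the highest, and all groups overlapped. Its log2 fold change was 0.0014 for sEVNORM against sEVCTRL (95% interval -0.55 to 0.56) and 0.27 for sEVHYP against either group.

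Junb, a Jun relative that restrains proliferation in several cell types, measured 4.93, 4.42 and 4.82 CPM in sEVCTRL, 7.36, 6.16 and 3.74 in sEVNORM and 4.12 and 2.73 in sEVHYP. The sEVHYP glands were below all sEVCTRL glands, but sEVNORM replicate 3 lay between the sEVHYP values. The log2 fold change of sEVHYP was -0.46 against sEVCTRL (95% interval -1.24 to 0.32, unadjusted P = 0.214) and -0.75 against sEVNORM (95% interval -1.52 to 0.03, unadjusted P = 0.0584). Exons of Junb overlap those of Prdx2 on the opposite strand, and exons of Jun those of the antisense RNA Junos. The library kit keeps strand, but the setting used in counting is not given in the sources used here, so these values may include reads of the overlapping genes.

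Atf3, a stress-induced ATF/CREB family member that can repress its targets, measured 1.83, 3.83 and 2.74 CPM in sEVCTRL, 3.62, 2.26 and 3.50 in sEVNORM and 3.39 and 7.49 in sEVHYP. The value of sEVHYP replicate 2 stood above the rest, and the other sEVHYP gland lay within both other groups. The log2 fold change of sEVHYP was 0.95 against sEVCTRL (95% interval -0.03 to 1.94, unadjusted P = 0.0564) and 0.80 against sEVNORM (95% interval -0.19 to 1.78, unadjusted P = 0.100). Without sEVHYP replicate 1 these were 1.42 (unadjusted P = 0.0144) and 1.26 (unadjusted P = 0.0250), and without sEVCTRL replicate 2 the first was 1.25 (unadjusted P = 0.0275).

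Ier2, a nuclear protein induced with these factors, measured 7.67, 4.97 and 4.60 CPM in sEVCTRL, 7.48, 6.07 and 5.35 in sEVNORM and 6.37 and 3.96 in sEVHYP. The groups overlapped, and its 3 log2 fold changes lay between -0.29 and 0.13, with intervals from -1.03 to 0.80. Dusp1 measured 25.3, 74.6 and 34.2 CPM in sEVCTRL, 35.4, 24.0 and 35.1 in sEVNORM and 36.0 and 67.1 in sEVHYP. Its groups differed less than its glands did, since the highest and the lowest of its sEVCTRL values differed more than any group means. The log2 fold change was 0.20 for sEVHYP against sEVCTRL (95% interval -0.79 to 1.2), 0.71 for sEVHYP against sEVNORM (95% interval -0.28 to 1.70, unadjusted P = 0.14) and -0.50 for sEVNORM against sEVCTRL (95% interval -1.40 to 0.39). The difference of sEVHYP from sEVNORM passed in other fits. It was 0.72 in DESeq2 on only the groups compared (unadjusted P = 0.0302, adjusted 0.664) and 0.71 in edgeR without sEVCTRL replicate 2 (unadjusted P = 0.0415). Exons of Dusp1 overlap those of Ergic1 on the opposite strand.

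For sEVHYP against sEVCTRL, the library whose removal moved the count of called members most was sEVCTRL replicate 2. Without it, 6 of the 10 genes were called higher in sEVHYP than in sEVCTRL (Fos, Jun, Atf3, Nr4a1, Dusp1 and Egr2), and the median log2 fold change of the members rose from 0.29 to 0.72. The number of all genes called rose as well, from 438 of 17858 to 1472 of 17701. Skeletal muscle markers of sEVCTRL replicate 2 summed to 9341 CPM, second to the 13510 CPM of sEVHYP replicate 2. For sEVHYP against sEVNORM, the median was -0.039 without sEVHYP replicate 1 and -0.0055 without sEVHYP replicate 2, with 1 sEVHYP library left in each case. For sEVNORM against sEVCTRL, the median was lowest without sEVNORM replicate 1, at 0.053.

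Across the 8 glands the 10 genes did not vary as 1 group. Over the 45 pairs of genes, Pearson's r of log2 CPM ran from -0.73 to 0.90, with 26 pairs above 0 and 19 below. Fos, Jun, Atf3, Nr4a1 and Dusp1 varied together, with r of 0.53 to 0.90 for their 10 pairs (Spearman's rho 0.69 to 0.95), and 0.82 to 0.97 after the group means were subtracted. Junb and Ier2 went against all 5 of them, with r of -0.73 to -0.20 in 10 pairs. Egr1 and Egr2 gave r of -0.37 to 0.29 with the 5 genes and of 0.62 with each other. After the group means were subtracted, r with the 5 genes was below 0 in all 10 pairs, at -0.78 to -0.58 for Egr2 and -0.22 to -0.02 for Egr1, and that of Junb and Ier2 ran from -0.70 to -0.21. These sets were formed after the values were seen and were not tested as sets.

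Of the 45 pairs, Jun with Atf3 had the strongest relation by the exact permutation test (r = 0.87, P = 0.000149, adjusted over the 45 pairs 0.0067; rho = 0.95, P = 0.00114, adjusted 0.0257). Without the 2 libraries farthest from the median of Jun, r was 0.81. By Pearson's r, 10 pairs had an unadjusted P under 0.05 and this 1 an adjusted P under 0.05. By Spearman's rho, 7 pairs had an adjusted P under 0.05. All were among the 5 genes, which were grouped from these same values, so this gives the set no further support. Without the 2 libraries farthest from the median of the first gene of a pair, r among the 5 genes ran from 0.42 (Fos with Nr4a1) to 0.81 (Jun with Atf3). For Nr4a1 with Dusp1, r was 0.87 (exact P = 0.00404, adjusted 0.0606) and rho was 0.95 (exact P = 0.00114, adjusted 0.0257), and r fell to 0.66 without the 2 libraries farthest from the median of Nr4a1. Junb with Ier2 gave r = 0.71 (exact P = 0.0440, adjusted 0.198) and rho = 0.62 (exact P = 0.115, adjusted 0.431), with r of 0.68 within groups. Without the 2 libraries farthest from the median of Junb, r was 0.22. Leaving out the extremes of Junb narrows its range, so the lower r cannot show whether that relation rests on those libraries.

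**Figure D3:**
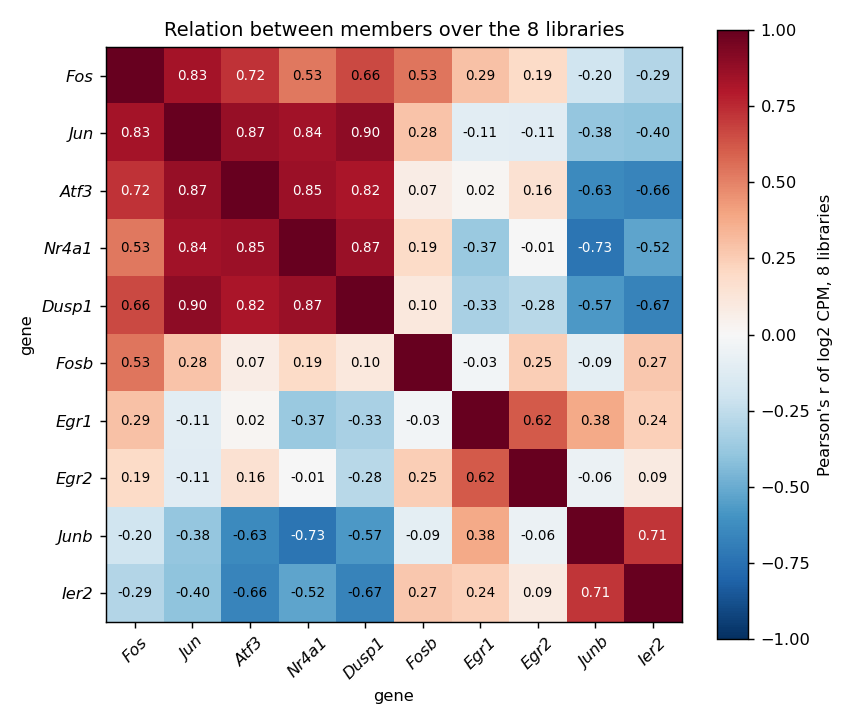
Pearson's r of log2 CPM between each pair of the 10 genes over the 8 libraries, on a color scale from -1 (blue) to 1 (red), with the genes of each set placed together. The 10 pairs among Fos, Jun, Atf3, Nr4a1 and Dusp1 range from 0.53 to 0.90, and their pairs with Junb and Ier2 from -0.73 to -0.20.

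The dissected glands differed in the markers of the tissues and cells they held, and the levels of some members followed these markers. The 8 libraries had the same order for Dusp1 as for the 12 skeletal muscle markers (mean log2 CPM) (rho = 1, exact P = 5.0e-05, which is the smallest these permutations can give, adjusted over 130 relations of members with marker lists 0.00645). Pearson's r for that relation was 0.79 (exact P = 0.0183, adjusted 0.155), 0.90 without the 2 libraries farthest from the median of Dusp1 and 0.72 within groups. For Nr4a1 with the same markers rho was 0.95 (exact P = 0.00114, adjusted 0.0371) and r was 0.78 (exact P = 0.0203, adjusted 0.155), and r was 0.80 without the 2 libraries farthest from the median of Nr4a1. Atf3 followed the basal epithelium markers (rho = 0.98, exact P = 0.000397, adjusted 0.0258; r = 0.83, exact P = 0.0104, adjusted 0.135) and ran against the T cell markers (rho = -0.95, exact P = 0.00114, adjusted 0.0371; r = -0.85, exact P = 0.00184, adjusted 0.0703), with r of 0.98 and -0.81 without the 2 libraries farthest from the median of Atf3. These were the 4 relations of 130 with an adjusted P under 0.05 by rho, and by r there were 0 of 130, with 32 at an unadjusted P under 0.05. By r, Dusp1 with the T cell markers lay farthest from 0 (r = -0.95, exact P = 0.00124, adjusted 0.0703, and -0.96 within groups). None of these lists was particular to 1 gene. Fos, Jun, Atf3, Nr4a1 and Dusp1 gave rho of 0.74 to 1 with skeletal muscle, 0.83 to 0.98 with basal epithelium and -0.95 to -0.81 with T cell markers.

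With the skeletal muscle markers, r was -0.09 for Egr1 (exact P = 0.860, adjusted 0.924) and rho was -0.05 (exact P = 0.935, adjusted 0.980), while r was -0.18 for Egr2 (exact P = 0.684, adjusted 0.826) and rho was -0.17 (exact P = 0.703, adjusted 0.888). Without the 2 libraries farthest from each gene's median these r were -0.41 and -0.27, and within groups they were 0.46 and -0.47. With skeletal muscle as a covariate, the log2 fold change of sEVNORM against sEVCTRL was 1.07 for Egr1 (unadjusted P = 0.00234) and 0.84 for Egr2 (unadjusted P = 0.0254), and that of sEVHYP against sEVCTRL was 1.36 for Egr2 (unadjusted P = 0.00279). The glands all held the markers of their own tissue, since no luminal epithelium (8 genes), basal epithelium (7 genes) or white adipocyte (7 genes) marker was at 0 in any library.

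**Figure D4:**
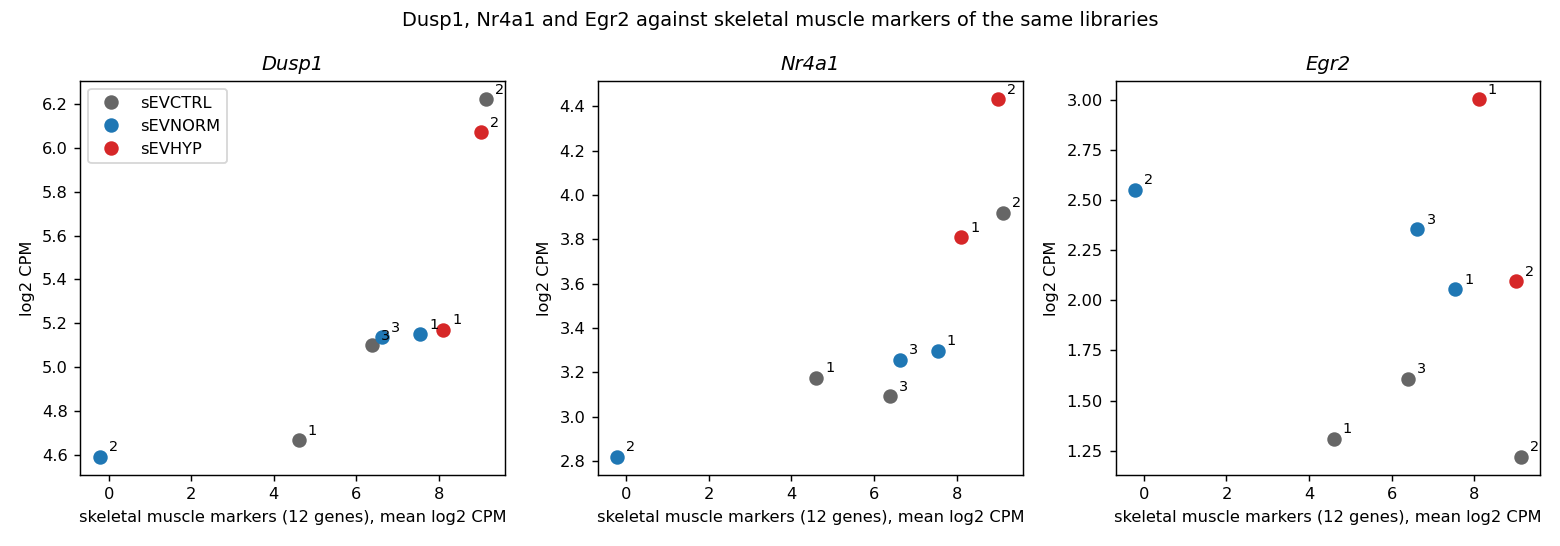
Log2 CPM of Dusp1, Nr4a1 and Egr2 (y axes) against 12 skeletal muscle markers (x axes, mean log2 CPM), 1 point per gland with its replicate number, colored by group. Dusp1 rises in the same order as the markers over the 8 glands (rho = 1), Nr4a1 nearly so (rho = 0.95), and Egr2 does not (rho = -0.17), with its 3 sEVCTRL points lowest.

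Few genes of the related lists passed the test. Of 37 further immediate early genes, 35 were tested (Fosl1 and Egr4 had at most 3 counts in any library) and 0 were called in any of the 3 comparisons, at unadjusted P in the same test, with medians of 0.01, 0.02 and -0.05 on the log2 scale. The smallest P among them was that of Nr4a3, a relative of Nr4a1, at 8.02, 9.99 and 6.35 CPM in sEVCTRL, 7.80, 10.3 and 9.84 in sEVNORM and 11.7 and 11.8 in sEVHYP. Both sEVHYP glands were above all other glands for Nr4a3, and its log2 fold change was 0.53 against sEVCTRL (unadjusted P = 0.0585) and 0.33 against sEVNORM (unadjusted P = 0.205). Of the 16 upstream kinases and transcription factors, 0 were called, and Srf, which encodes the CArG box factor, had the smallest P (0.29 for sEVHYP against sEVNORM, unadjusted P = 0.207). Of 12 other AP-1 partners, 11 were tested and 0 were called.

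Among 14 feedback inhibitors and ERK-responsive genes, Dusp6 was the 1 that was called. This phosphatase specific for ERK was at 30.3, 31.6 and 34.6 CPM in sEVCTRL, 44.2, 46.5 and 35.8 in sEVNORM and 36.6 and 32.5 in sEVHYP. All sEVNORM values were above all sEVCTRL values, with a log2 fold change of 0.39 (SE 0.15, unadjusted P = 0.0296), and for sEVHYP against sEVCTRL it was 0.10 (unadjusted P = 0.560). Dusp6 thus had the order of groups that Egr1 had. The list as a whole did not keep to that order. For sEVHYP against sEVCTRL, 0 of the 14 genes were called and 13 were fitted higher, with a median of 0.20 against -0.02 over all genes. For sEVHYP against sEVNORM and for sEVNORM against sEVCTRL, 10 of 14 were fitted higher, with medians of 0.18 and 0.11.

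The heat shock list of 11 chaperones, which stress can induce in tissue alongside the immediate early genes, gave 4 genes called higher in sEVHYP than in sEVNORM and 0 against sEVCTRL. Dnajb1, an HSP70 co-chaperone, was at 28.1, 26.1 and 36.1 CPM in sEVCTRL, 24.7, 25.4 and 23.4 in sEVNORM and 40.0 and 37.4 in sEVHYP, above all other glands in both sEVHYP libraries. Its log2 fold change from sEVNORM was 0.66 (unadjusted P = 0.00446), and those of Hspa1a, Hspa1b and Hsph1 were 1.05 (unadjusted P = 0.0193), 0.73 (unadjusted P = 0.0108) and 0.49 (unadjusted P = 0.0499). Hspa1a and Hspa1b share 99.2% of 2201 aligned bases, so the split of reads between them is uncertain. In sEVNORM against sEVCTRL all 11 were fitted lower, with a median of -0.29 against -0.0008 over all genes, and Hsph1 was called (-0.52, unadjusted P = 0.0274). Of the members, Nr4a1 was also called higher in sEVHYP than in sEVNORM, but 5 of the 10 were fitted lower there. Junb, Egr1 and Ier2 were among these 5, at -0.75, -0.65 and -0.29, and none of them was called. The relation of the members to the chaperones was not tested.

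**Figure D5:**
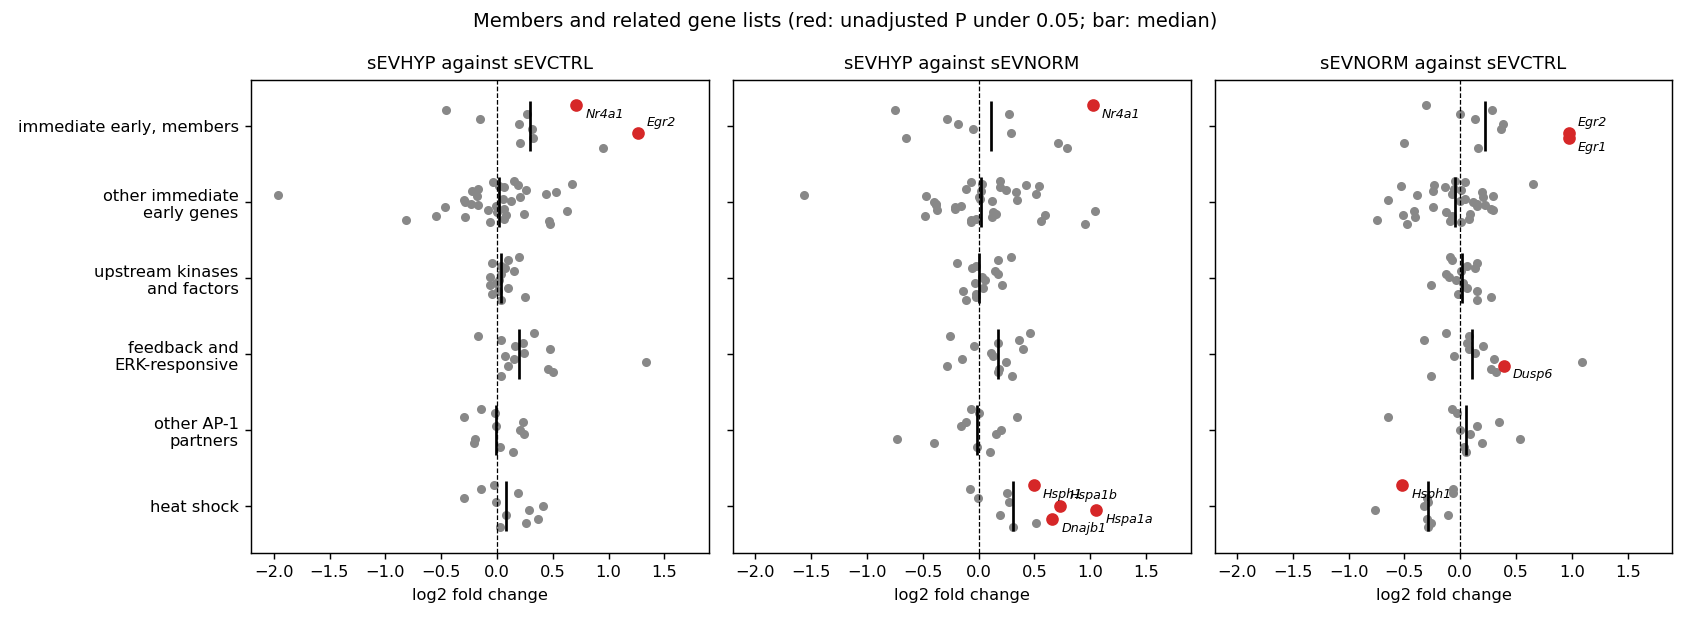
Log2 fold change (x axes) of each tested gene of the immediate early members and 5 related lists (rows), in the 3 comparisons, with a black bar at the median of each list and red points for an unadjusted P under 0.05. Red points lie among the members, at Dusp6 for sEVNORM against sEVCTRL, and among the heat shock genes, where 4 are higher in sEVHYP than in sEVNORM and Hsph1 is lower in sEVNORM than in sEVCTRL.

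The genes whose pattern over the 8 libraries was most like the mean of the standardized log2 CPM of the 10 members were Tmem30b, Tfap2a, Mctp1, Tm7sf3, Arl14ep, Gm12250, Srpx, 3830406C13Rik, Frrs1, Tent4a, Phlda1 and Fzd7, with r of 0.96 to 0.92 as a description. Of the members, Fos was closest to that mean (r = 0.92), then Jun (0.80) and Atf3 (0.69), while Junb (-0.12) and Ier2 (-0.05) did not follow it. The mean was lowest in sEVCTRL replicate 3 (-0.76 SD) and sEVCTRL replicate 1 (-0.63 SD), and highest in sEVNORM replicate 1 (0.50 SD), with sEVCTRL replicate 2 at 0.28 SD among the values of the tumor sEV glands, which ran from -0.13 to 0.50 SD.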

How the data were processed

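RNA sequencing of 8 whole mammary glands was analyzed. The authors aligned reads with STAR to mm10 and estimated gene counts with RSEM 1.2.12 on Ensembl genes, and the deposited values are estimated counts given as whole numbers without normalization; how they became whole is not given in the sources used here. Groups came from the sample labels, and their sEV names, tissue and time of injection from the study's text. Each library is 1 gland of a separate animal, as far as the study's text gives it. The fit used edgeR 4.0.16 under R 4.3.3 (quasi-likelihood F-test, two-sided, 1 model of 3 groups with 5 residual degrees of freedom) after filterByExpr at a minimum of 10 and TMM scaling by 0.975 to 1.02, with adjusted P by Benjamini-Hochberg over 17858 genes. The count limit of 3 for a gene at 0 covers the error of counting. All intervals come from the quasi-likelihood fit, whose spread was estimated between glands within groups, so they include variation between glands. Log2 CPM for relations used a prior count of 2. Genes that had no symbol took 0.0389% of the counts. Relations used exact permutation tests, two-sided (NumPy 2.4.6, with ranks from SciPy 1.17.1). The edgeR fit, and not the relation tests, was tried on simulated counts, for sEVHYP against sEVNORM. Symbols, exon lengths and overlaps came from a GENCODE annotation of GRCm38, near-identical copies from BLAST+ 2.17.0 and promoters from RefSeq GRCm38.p6. The members and lists were chosen with earlier results of these data known. Besides all members, the text names from each list the genes called in any comparison or, where there were none, that with the smallest P (1 such gene is not reported here), and the 12 genes most like the members' mean (at least 5 CPM).

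The marker lists covered immune cells (T cell, macrophage, neutrophil, B and plasma cell), epithelium (basal, luminal, keratinocyte), adipocytes (white, brown), fibroblast, endothelium, peripheral nerve and skeletal muscle. Beyond those given in the report, 2 of 6 tested brown adipocyte markers were called higher in sEVHYP than in sEVCTRL and 1 of 6 than in sEVNORM, 1 of 7 basal epithelium and 1 of 6 fibroblast markers were called higher in sEVHYP than in sEVCTRL, and 0 of the white adipocyte, luminal epithelium, B and plasma cell, T cell, macrophage and endothelium markers were called in any comparison. The alternatives were DESeq2 size factors, DESeq2 1.42.0 on all libraries or only on the groups compared (closest to the study's methods), edgeR limited to the groups compared, a minimum of 10 counts per library or none, skeletal muscle as a covariate, a block for the replicate number, and each library left out in turn.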

Additional observations from a re-analysis of the deposited data

How the results depend on the processing

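Egr1 and Egr2 kept their calls for sEVNORM against sEVCTRL in 16 of 16 alternatives (0.80 to 1.22 and 0.84 to 1.10 on the log2 scale), Egr2 for sEVHYP against sEVCTRL in 15 of 16 (0.73 to 1.64), and Nr4a1 for sEVHYP against sEVNORM in 14 of 16 (0.65 to 1.30). For sEVHYP against sEVCTRL, 1 member was called with DESeq2 size factors, the replicate block, the muscle covariate and either tool on only the groups compared. All genes called in these fits were 430, 401 and 578 of 17858, then 300 of 17215 with edgeR and 387 of 25790 with DESeq2. For sEVHYP against sEVNORM, 2 were called without a filter, with the replicate block and with edgeR on only the groups compared, and 3 with DESeq2 on only the groups compared or on all libraries. All genes called were 1102 of 27246 without a filter, 769 of 17858 with the block and 1056 of 17403 with edgeR on those groups. With DESeq2 they were 1195 of 26293 on those groups and 849 of 27208 on all libraries. The main fit called 706 of 17858. The muscle covariate gave a median of -0.11 for sEVHYP against sEVNORM and -0.058 for Jun. Jun for sEVNORM against sEVCTRL was -0.0107 with DESeq2 size factors, -0.0102 with edgeR and -0.0141 with DESeq2 on only the groups compared, and -0.0104 with DESeq2 on all libraries. The cause of these changes was not tested. With DESeq2 on only the groups compared, 14, 83 and 3 genes of all tested had an adjusted P under 0.05 for sEVHYP against sEVCTRL, sEVHYP against sEVNORM and sEVNORM against sEVCTRL, and Nr4a1 had 0.109 in the second. Same-numbered sEVNORM and sEVCTRL libraries did not deviate together (correlations -0.29, -0.42 and -0.01), while those of sEVHYP and sEVCTRL gave 0.37 and 0.34 and those of sEVHYP and sEVNORM -0.13 and -0.31. The labels give no shared source for a number, and the numbers were not taken as pairs. With the replicate block, Nr4a1 for sEVHYP against sEVCTRL had an unadjusted P of 0.0899. The replicate block gave 401, 769 and 252 genes called.

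With 1 library left out in turn, the members called ranged from 1 to 6 for sEVHYP against sEVCTRL and from 0 to 4 against sEVNORM, and the median for sEVHYP against sEVCTRL from 0.15 to 0.72. The highest count and median for sEVHYP against sEVCTRL came without sEVCTRL replicate 2. With 1 sEVHYP library left out, the lone sEVHYP library is assumed to vary like the other groups, so the numbers of members called in those fits are left out. Log2 fold changes that changed sign ranged, for sEVHYP against sEVCTRL, from -0.33 to 0.79 for Dusp1, -0.53 to 0.14 for Ier2, -0.25 to 0.66 for Fosb, -0.053 to 0.60 for Egr1 and -0.022 to 0.55 for Jun. For sEVHYP against sEVNORM they ranged from -0.30 to 0.16 for Fos, -0.24 to 0.67 for Egr2, -0.019 to 0.51 for Jun and -0.67 to 0.0085 for Ier2. For sEVNORM against sEVCTRL they ranged from -0.093 to 0.46 for Atf3, -0.15 to 0.28 for Jun, -0.46 to 0.0063 for Nr4a1, -0.81 to 0.083 for Dusp1, -0.063 to 0.84 for Fosb and -0.0092 to 0.37 for Ier2. None of these was called with all libraries.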
